A study of Danio rerio with 94 samples.

Results

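The genes described here are 29 of the 3068 genes of a zebrafish expression table, those whose symbols mark them as fatty acid binding proteins, apolipoproteins, enzymes of fatty acid oxidation, activation, elongation and synthesis, enzymes of sterol synthesis, or the bile salt export pump abcb11b. They were chosen by their symbols. Wild type embryos of the 5D strain were exposed at 20 μM to naphthalene or to 1 of 21 alkyl naphthalenes in DMSO, or to the DMSO vehicle alone, from 6 to 24 hours post fertilization (hpf). RNA of whole animals was taken at 48 hpf and measured with TempO-Seq, a sequencing assay in which probe pairs are ligated on their target transcripts and counted. Each of the 22 chemicals had 4 pools of 6 phenotypically normal embryos, 11 chemicals were exposed on each of 2 days, and the vehicle controls held 5 pools, 2 of day 1 and 3 of day 2. Embryos were exposed and pooled by vial group. The authors describe fewer vials left for RNA than pools collected per treatment, so pools of a treatment may share a vial. Which pools do so is not given in the sources used here. The embryos pooled were those without a visible malformation, so affected embryos of the same exposure were not measured.

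A zebrafish embryo at this age feeds on its yolk. The yolk syncytial layer takes up yolk lipid, packages it with apolipoproteins and secretes it as lipoprotein particles, while small binding proteins carry fatty acids inside cells, where they are burned in mitochondria and peroxisomes, lengthened by elongases or built into membranes. Cholesterol can be made from acetyl-CoA by a chain of enzymes that includes hmgcs1, hmgcra, lss, ebp and dhcr7, and the liver exports bile salts once it works.

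Values are log2 CPM, the logarithm of reads scaled to a common library size, after the authors' correction for exposure day. Reads given here were recovered from these values, so they are counts after that correction and not the reads as sequenced. The pools held 7.21 to 16.5 M such reads (median 10.3 M). Of the 29 genes, 19 had reads in every pool and 16 had a median of more than 100 reads, while 5 (abcb11b, dhcr7, elovl4b, fabp1a and hmgcra) had a median under 10. The RNA came from whole pooled embryos, so less RNA per cell and fewer cells of a type cannot be told apart. Markers of liver, yolk syncytial layer, intestine, muscle, blood, neurons and retina were all detected. Of the lens and retina list only opn1sw1 and pde6c, 2 photoreceptor genes, were measured. They summed to 0.0782 to 15.5 CPM in exposed pools, so lens RNA was not assessed.

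Each chemical was compared with the same 5 control pools by limma, with Benjamini-Hochberg adjustment over 3068 genes. A gene is said to have changed at an adjusted p of 0.05 or less at any fold, and to be called if its log2 difference was also 1 or more in size. Few members changed. Over 638 tests of a member against a chemical, 12 changed (1.88%), beside 1.2% of the tests of all genes. A single one was called (0.157%), beside 0.324% for all genes. The 12 changes fell on 5 genes, fabp11b in 8 chemicals and elovl6, apoa1a, cpt2 and apoea in 1 each. They came from 9 chemicals, and 13 chemicals had no member that changed. The pools of a chemical did not overlap the controls in 35 member tests (5.49%), beside 3.86% over all genes. With adjustment over all 67496 tests at once, 10 member tests passed, and not all of them were among these 12. In 1,7-dimethylnaphthalene apoa1a, cpt2 and fabp11b did not pass that way (limma, adjusted p = 0.084, 0.10 and 0.093). Nor did fabp11b in the 1,4,5-trimethyl derivative of naphthalene (adjusted p = 0.068).

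**Figure D1:**
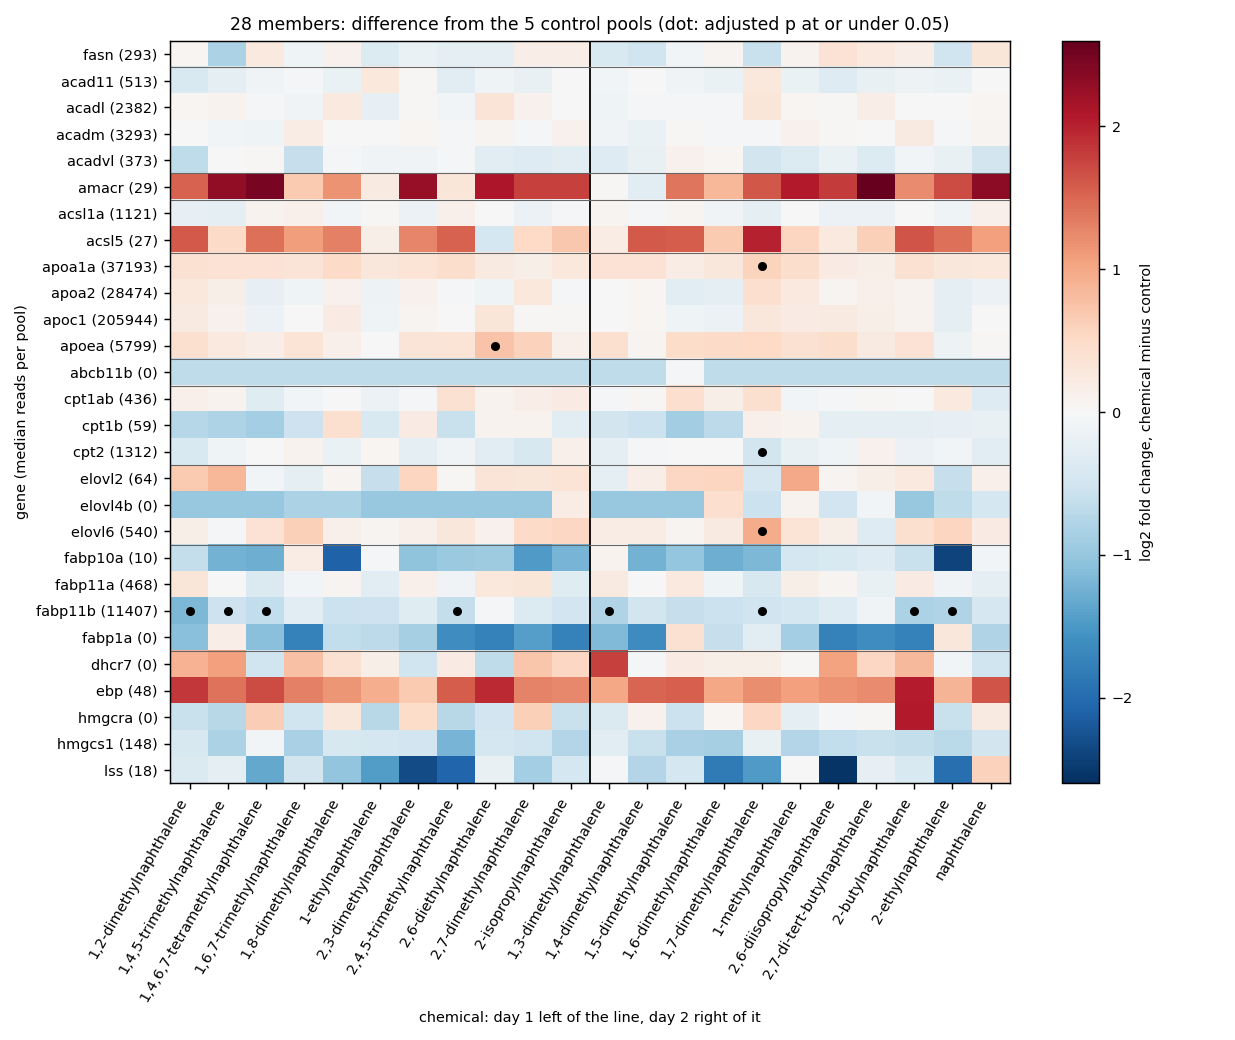
Differences of 28 members (rows, with their median reads per pool, grouped by role) from the 5 control pools in 22 chemicals (columns, day 1 left of the line and day 2 right of it), as log2 fold change in color. Dots mark the 12 tests with an adjusted p at or under 0.05, 8 of them in the row of fabp11b.

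Of the 4 fatty acid binding proteins, fabp11b changed in 8 chemicals and the other 3 in none. fabp11b is a fish member of the family that binds long chain fatty acids in the cytoplasm, related to the FABP4 group of mammals. In the controls its level was 10.72 and 10.20 log2 CPM in the pools of day 1 and 10.41, 10.69 and 10.94 in those of day 2. In 1,2-dimethylnaphthalene it was 9.36, 9.23, 9.59 and 9.49. All 4 exposed pools lay below all 5 control pools, and the mean was 0.442 times the control level (log2 difference −1.18, SE 0.16, adjusted p = 3.81e-07 in limma). This was the only member called in any chemical, where 0.359% of all genes were called and 2.12% changed. It stayed called in all 10 alternative fits and without any 1 of the 9 pools, with adjusted p values up to 0.030.

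**Figure D2:**
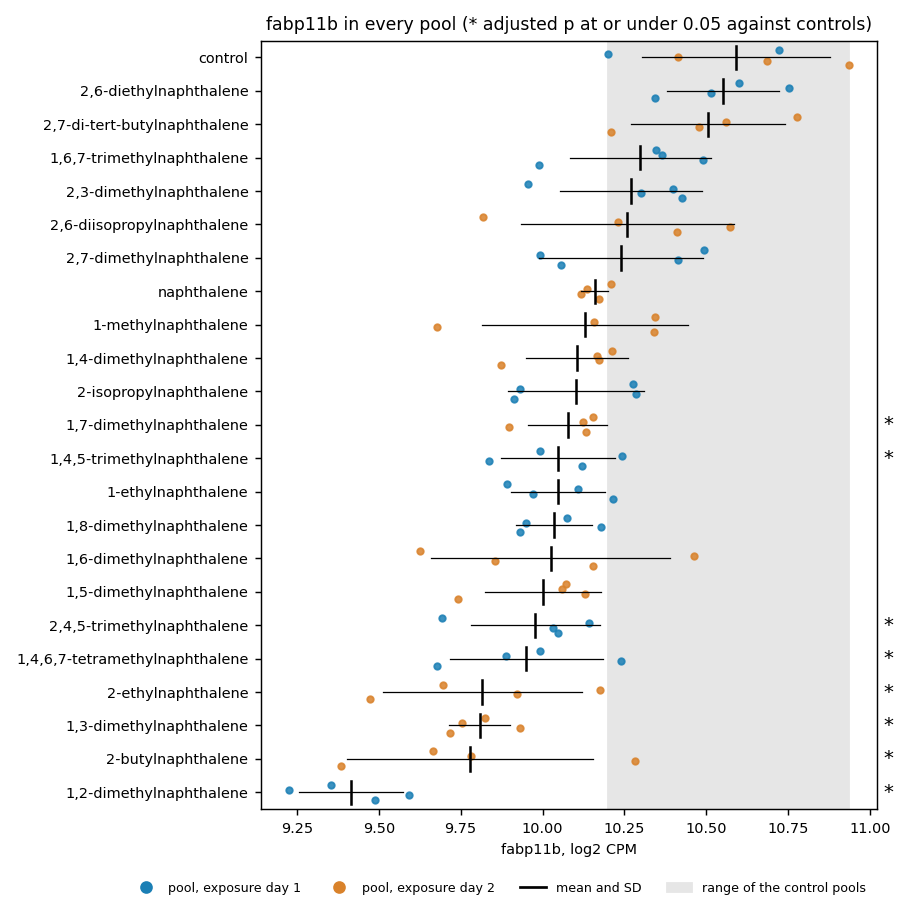
Level of fabp11b in each of the 93 pools, with controls at the top and the 22 chemicals in the order of their means. Points are pools, colored by exposure day, with mean and SD in black and the range of the control pools in grey; 58 of 88 exposed pools lie below the lowest control pool and 0 above the highest.

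A lower fabp11b was not particular to 1,2-dimethylnaphthalene. Means were below the control mean in 22 of 22 comparisons, which share their control pools, and 58 of the 88 exposed pools were under the lowest control pool of 10.20 while 0 were over the highest of 10.94. The exposed pools ran from 9.23 over a median of 10.12 to 10.78.

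The mean of all chemicals was lower than the control mean by a log2 difference of −0.52 (SE 0.11, 95% interval −0.73 to −0.31, adjusted p = 0.0015 in limma). In this comparison 1.21% of all genes were higher and 1.76% lower. The difference held with each of the 93 pools left out, with adjusted p values up to 0.029, and in all 8 alternative fits.

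Marker genes moved in the same comparison. The yolk syncytial layer list (4 of 10 genes measured) summed to 2557 to 8041 CPM over the exposed pools with a median of 5096, beside 3112 to 4628 CPM and a median of 3688 in the controls, and 59 of 88 exposed pools were above the highest control pool. Most of this sum came from its cathepsin gene ctsla, which was higher in the mean of all chemicals (0.40, adjusted p = 0.032). No other gene of the list passed in that comparison, and the median difference over its 4 measured genes was −0.10. The intestine list (2 of 9 genes measured) summed to 18.0 to 69.1 CPM with a median of 39.0, beside 40.1 to 66.0 and a median of 60.6 in the controls, and 46 exposed pools were below the lowest control pool.

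The neuron and glia list (6 of 11 genes measured) summed to 296 to 652 CPM with a median of 554, beside 503 to 702 and a median of 609, with 18 exposed pools below the lowest control pool. Its myelin gene mbpa was lower in the mean of all chemicals (−1.45, adjusted p = 0.032), on 0 to 13 reads per control pool and a median of 0 in exposed pools. The liver list had medians of 1074 and 1167 CPM and the blood list of 636 and 630 in exposed and control pools. For the skeletal and heart muscle list (2 of 15 genes measured) they were 11930 and 9833 CPM. There 25 exposed pools were above the highest control pool and 6 below the lowest. The part of these tissues in the lower fabp11b was not tested.

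Next to 1,2-dimethylnaphthalene came 3 chemicals with differences near −0.8. In 2-butylnaphthalene the pools read 9.67, 9.78, 10.28 and 9.38 log2 CPM (difference −0.81, adjusted p = 0.00093), so that 1 pool lay inside the control range. In 1,3-dimethylnaphthalene they were 9.82, 9.75, 9.93 and 9.72 (−0.78, adjusted p = 0.0016), the tightest of the 3 and wholly below the controls. In 2-ethylnaphthalene they were 9.70, 10.18, 9.92 and 9.47 (−0.78, adjusted p = 0.0029), also without overlap. These 3 changes and that of 1,2-dimethylnaphthalene held when any 1 of the 9 pools of the comparison was left out. In fits of only the 9 pools of a comparison, fabp11b changed in 1 chemical, 1,2-dimethylnaphthalene. In 2-butylnaphthalene, 1,3-dimethylnaphthalene and 2-ethylnaphthalene it did not pass that way (limma, adjusted p = 0.17, 0.12 and 0.23).

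In 4 of the 8 chemicals where fabp11b changed, ctsla of the yolk syncytial layer list was higher: in 1,3-dimethylnaphthalene (0.61, adjusted p = 0.029), 1,7-dimethylnaphthalene (0.94, adjusted p = 5.16e-05) and the 1,4,5-trimethyl (0.74, adjusted p = 0.0052) and 2,4,5-trimethyl (0.69, adjusted p = 0.018) derivatives. That list summed to more than in any control pool in all pools of these 4 and of 2-butylnaphthalene (4672 to 5832 CPM), and overlapped the controls in 1,2-dimethylnaphthalene, 2-ethylnaphthalene and the 1,4,6,7-tetramethyl derivative. Chemicals without a change of fabp11b showed the same. There ctsla was higher in 1,4-dimethylnaphthalene (0.63, adjusted p = 0.027). The list sum lay wholly above the controls in that chemical, 1,8-dimethylnaphthalene, 2-isopropylnaphthalene and the 1,6,7-trimethyl derivative. In 2-ethylnaphthalene cdx1b of the intestine list was lower (−1.10, adjusted p = 0.0080), the list summing to 18.0 to 45.9 CPM. cdx1b was also lower in 2,7-dimethylnaphthalene (−0.92, adjusted p = 0.030), where fabp11b did not change. In the 2,4,5-trimethyl derivative mpx of the blood list was lower (−1.11, adjusted p = 0.032), the list summing to 446 to 647 CPM beside 483 to 818 in the controls. The part of these markers in the changes of fabp11b was not tested.

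The other 4 changes in fabp11b were smaller and rested on single pools. They were found in the 1,4,6,7-tetramethyl (−0.64, adjusted p = 0.025), 2,4,5-trimethyl (−0.61, adjusted p = 0.028) and 1,4,5-trimethyl (−0.54, adjusted p = 0.044) derivatives of naphthalene and in 1,7-dimethylnaphthalene (−0.52, adjusted p = 0.033). Each was lost on leaving out any 1 of 6 of its 9 pools, among them control day 1 pool A, control day 2 pool B and control day 2 pool C, with adjusted p values up to 0.20. For reference, the share of all genes that changed was 1.69% in 2-butylnaphthalene, 1.86% in 1,3-dimethylnaphthalene, 0.684% in 2-ethylnaphthalene, 0.489% in the 1,4,6,7-tetramethyl derivative, 1.14% in the 2,4,5-trimethyl derivative and 2.02% in the 1,4,5-trimethyl derivative.

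At the other end, fabp11b was near the controls in 2,6-diethylnaphthalene, with 10.60, 10.75, 10.51 and 10.34 log2 CPM. The difference was −0.04. In 2,7-di-tert-butylnaphthalene the pools were 10.78, 10.56, 10.48 and 10.21, likewise within the control range. Unsubstituted naphthalene lay between the extremes at 10.21, 10.14, 10.12 and 10.17.

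The levels of fabp11b differed among the 23 groups by an F test (adjusted p = 9.74e-06), as did 7.95% of all genes. They also differed among the 22 chemicals without the controls (adjusted p = 0.00022, 7.2% of all genes), among the 11 chemicals of day 1 (adjusted p = 0.0011, 5.12%) and among the 11 of day 2 (adjusted p = 0.040, 3.39%). These last 3 tests do not compare with the control pools, which enter only the estimate of the spread.

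Exposure day matters for the comparison with controls, since few control pools stood on each day. Against the 2 control pools of day 1 alone, fabp11b differed by a median of −0.41 over the 11 chemicals of that day (−1.05 to 0.09), was higher in 1 of them and changed in 1, 1,2-dimethylnaphthalene (−1.05, adjusted p = 0.0012). Against the 3 control pools of day 2 the median was −0.60 (−0.90 to −0.17), with 0 of 11 higher and 4 changed. These were 2-butylnaphthalene (−0.90, adjusted p = 0.0020), 1,3-dimethylnaphthalene (−0.87, adjusted p = 0.0062), 2-ethylnaphthalene (−0.86, adjusted p = 0.0088) and 1,7-dimethylnaphthalene (−0.60, adjusted p = 0.048). The changes in the trimethyl and tetramethyl chemicals did not pass within their day.

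Related chemicals of the same day were compared directly in 26 pairs. Of 754 member tests, 5 changed (0.663%), beside 0.532% of the tests of all genes, and 0 were called, beside 0.112%. In 22 pairs no member changed. Of the 3 dimethyl isomers compared with 1,2-dimethylnaphthalene on day 1, fabp11b differed from it in 2. In 2,3-dimethylnaphthalene its pools were 9.96, 10.40, 10.30 and 10.43 log2 CPM, and 1,2-dimethylnaphthalene was lower by a log2 difference of −0.86 (95% interval −1.18 to −0.53, adjusted p = 0.0059 in limma). In 2,7-dimethylnaphthalene they were 10.49, 9.99, 10.42 and 10.06, and the difference was −0.82 (−1.15 to −0.50, adjusted p = 0.012).

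In both pairs fabp11b was the 1 gene of 3068 that changed (0.0326%), and both passed with adjustment over all 79768 pair tests (adjusted p = 0.0048 and 0.0078). The 4 pools of 1,2-dimethylnaphthalene did not overlap those of either isomer. Leaving out 1 pool ended the change in 3 of 8 cases for each pair, with adjusted p values up to 0.080. In a fit of only the 8 pools of a pair, fabp11b changed in neither (adjusted p = 0.34 and 0.36). Against 1,8-dimethylnaphthalene (10.08, 9.95, 10.18 and 9.93) the difference was −0.62 with an interval of −0.95 to −0.29, and did not pass (adjusted p = 0.22).

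The paralog fabp11a, of the same subfamily and with a median of 468 reads per pool, differed among the groups as well (F test, adjusted p = 0.0035, and adjusted p = 0.014 among the chemicals of day 1). It did not change against the controls in any chemical, and the mean of all chemicals differed from the control mean by −0.0035 (SE 0.12). Control pools were at 5.29, 5.49, 5.36, 5.76 and 5.73 log2 CPM. Its lowest group mean was in 1,7-dimethylnaphthalene, at 5.14, 5.15, 5.04 and 5.12, below all control pools.

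Its highest means were in 1,2-dimethylnaphthalene (5.66, 5.62, 6.03 and 6.09) and 2,7-dimethylnaphthalene (5.76, 5.44, 5.91 and 6.28). So 1,2-dimethylnaphthalene held the lowest mean of fabp11b and, with 2,7-dimethylnaphthalene, the highest of fabp11a. Across the means of the 22 chemicals, without the controls, the correlation of both genes was −0.14. The deviations of the 93 pools from their group means correlated at 0.34. Both are descriptions over pools that share a library each. How far the probes tell these paralogs apart is not given in the sources used here.

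The 1,7 isomer had lower fabp11a than 2 of its day 2 isomers. Against 1,5-dimethylnaphthalene (5.41, 5.72, 5.98 and 5.98 log2 CPM) the difference was −0.66 (95% interval −1.02 to −0.31, adjusted p = 0.026), in a pair where 3.23% of all genes changed. Against 1,3-dimethylnaphthalene (5.73, 5.46, 5.79 and 6.03) it was −0.64 (−0.997 to −0.29, adjusted p = 0.031), where 2.12% of all genes changed. Both contrasts were without overlap, but neither passed with adjustment over all pairs (adjusted p = 0.091 and 0.11), and leaving out 1 pool ended them in 5 and 6 of 8 cases.

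Both remaining binding proteins were too sparse to read. fabp10a, the liver form, had 10, 21, 1, 24 and 43 reads in the controls and 0 to 72 in exposed pools, with 22 exposed pools at 0. fabp1a, known from intestine and yolk syncytial layer, had 23, 20, 0, 2 and 0 control reads and 60 exposed pools without a read. Neither changed in a chemical.

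The 4 apolipoproteins had medians of 5799 (apoea) to 205944 (apoc1) reads per pool. apoa1a encodes the main protein of high density lipoprotein. It read 11.32, 11.24, 11.60, 11.81 and 11.59 log2 CPM in the controls and 12.26, 12.28, 12.07 and 11.74 in 1,7-dimethylnaphthalene, where it was higher by 0.57 (SE 0.17, adjusted p = 0.030). One exposed pool lay within the control range. Its mean was above that of the controls in 22 of 22 chemicals, by 0.15 to 0.57, and 51 of 88 exposed pools were above the highest control pool. The mean of all chemicals did not pass (0.33, SE 0.12, adjusted p = 0.11).

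**Figure D3:**
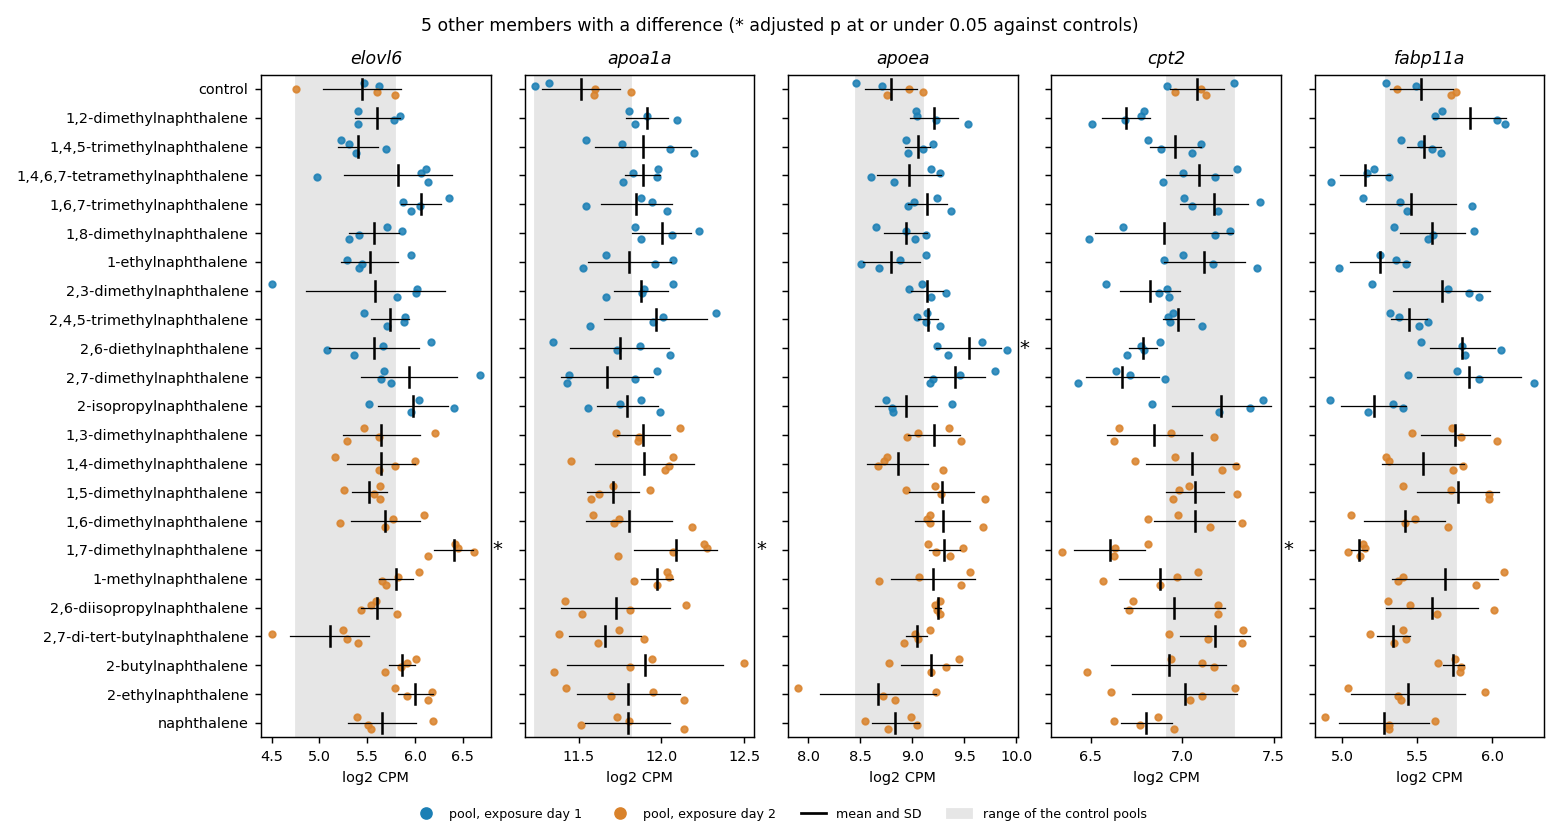
Level of elovl6, apoa1a, apoea, cpt2 and fabp11a in each pool, controls at the top and then the chemicals of day 1 and day 2. Points are pools colored by exposure day, with mean and SD in black and the control range in grey; asterisks mark elovl6 (0.96), apoa1a (0.57) and cpt2 (−0.47) in 1,7-dimethylnaphthalene and apoea (0.74) in 2,6-diethylnaphthalene.

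apoea, an apolipoprotein E that lipoprotein receptors recognize, differed among the groups (F test, adjusted p = 0.019). The controls were at 8.46, 8.71, 8.97, 9.11 and 8.76 log2 CPM and the 2,6-diethylnaphthalene pools at 9.67, 9.23, 9.91 and 9.35, all above. The difference was 0.74 (SE 0.18, adjusted p = 0.023), in a chemical where 1.53% of all genes changed. This is also the chemical in which fabp11b was nearest the controls. Pools of 5 chemicals did not overlap the controls for apoea, and 21 of 22 means were higher.

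For both genes the day 1 controls were the lower ones. Against same-day controls apoea changed in 2 chemicals of day 1 and 0 of day 2, with median differences of 0.56 and 0.25. apoa1a changed in none on either day, with medians of 0.60 and 0.14, and its change in 1,7-dimethylnaphthalene was not kept (0.42). Over all alternative fits, not only this one, the adjusted p of that change ran up to 0.29. Without control day 1 pool A, neither apoa1a nor apoea changed in any chemical. The change of apoa1a was also lost without control day 1 pool C or without pool B, C or D of 1,7-dimethylnaphthalene (adjusted p up to 0.14). Likewise the change of apoea was lost without control day 1 pool C or without pool B or D of 2,6-diethylnaphthalene (adjusted p up to 0.14).

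apoa2 and apoc1, small apolipoproteins of high density and triglyceride-rich particles, stayed near the controls. Their differences over the chemicals were −0.27 to 0.44 and −0.23 to 0.31, and no chemical passed. The 2 genes deviated together from pool to pool, with r = 0.56 over the 93 deviations from group means, the highest of 406 member pairs. apoa1a with apoa2 had r = 0.43, and apoc1 had r = 0.42 with fabp11a and 0.41 with fabp11b. Over all 4704778 gene pairs the 1st to 99th percentiles were −0.32 to 0.34, and 14 member pairs (3.45%) were above 0.3, beside 1.72% of all gene pairs. Pools share a library across genes, and these values are descriptions.

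The elongases lengthen fatty acids by adding carbons from malonyl-CoA. elovl6, which acts on saturated and monounsaturated chains, read 5.47, 5.62, 4.75, 5.60 and 5.79 log2 CPM in the controls. In 1,7-dimethylnaphthalene it was 6.42, 6.45, 6.62 and 6.13, above every control pool, 1.94 times the control level (difference 0.96, SE 0.24, adjusted p = 0.0071). That change held without any 1 of the 9 pools (adjusted p up to 0.046) and against the controls of day 2 alone, where the difference was 1.02. It was lost in a fit of the 9 pools alone (adjusted p = 0.13).

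The same isomer had a higher mean than the other dimethyl isomers of its day. Its pools were not all above theirs: 1 pool of 1,3-dimethylnaphthalene was at 6.21, above its lowest pool of 6.13. Against 1,5-dimethylnaphthalene (5.63, 5.25, 5.57 and 5.63) elovl6 was higher by 0.88 (95% interval 0.38 to 1.38, adjusted p = 0.033), a change that 7 of 8 left-out pools ended. Differences from 1,3-, 1,4- and 1,6-dimethylnaphthalene and from naphthalene were 0.71 to 0.76 with adjusted p values of 0.079 to 0.10, so these pairs did not pass. The F test over the groups missed the threshold (adjusted p = 0.057), and that over the day 2 chemicals passed (adjusted p = 0.048). elovl2, which acts on polyunsaturated chains, varied from 3 to 171 reads in exposed pools, and elovl4b had no reads in 72 of them. Neither changed.

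Oxidation of fatty acids in mitochondria starts with the carnitine palmitoyltransferases. cpt2, on the inner membrane, was at 7.29, 6.92, 7.10, 6.96 and 7.13 log2 CPM in the controls and at 6.81, 6.63, 6.34 and 6.63 in 1,7-dimethylnaphthalene. All exposed pools were lower, by a difference of −0.47 (SE 0.15, adjusted p = 0.038). It differed among the groups (F test, adjusted p = 0.043), a result that missed the threshold in 30 of 93 fits without 1 pool. Also in 1,2-dimethylnaphthalene, 2,6-diethylnaphthalene and 2,7-dimethylnaphthalene its pools did not overlap the controls, without passing. The change in 1,7-dimethylnaphthalene was lost on leaving out any 1 of 5 of the 9 pools, which were pools C and D of the chemical, control day 1 pool A and control day 2 pools A and C (adjusted p up to 0.16), and against the day 2 controls alone (−0.46, adjusted p = 0.15).

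The outer membrane forms cpt1ab and cpt1b, which make the acylcarnitines that cpt2 uses, did not change. Their differences ran from −0.33 to 0.44 and from −0.91 to 0.41, the latter with 8 to 132 reads in exposed pools. The 4 acyl-CoA dehydrogenases acad11, acadl, acadm and acadvl, which take the first step of the oxidation cycle, also stayed without a change. acadm was the steadiest member, with differences of −0.17 to 0.23 and a spread between pools of 0.17. acadvl had 46 of 88 exposed pools below its lowest control pool, but its exposed pools ran widely, from 3.51 to 5.91. With separate fits of each chemical with its controls, a change of acadvl did pass.

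With 1,7-dimethylnaphthalene, then, 4 of the 29 members changed, elovl6 and apoa1a upward and cpt2 and fabp11b downward, in the chemical where 6.1% of all genes changed. Its median difference over the members was 0.13, beside 0 over all genes. With adjustment over the tests of all chemicals at once, apoa1a, cpt2 and fabp11b did not pass (limma, adjusted p = 0.084, 0.10 and 0.093). Marker genes moved in the same pools. The yolk syncytial layer list (4 genes, 0 without reads) summed to 5454 to 8041 CPM, above the 3112 to 4628 CPM of the controls, through ctsla, a cathepsin (0.94, adjusted p = 5.16e-05).

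The neuron and glia list (6 genes) summed to 296 to 534 CPM, beside 503 to 702 in the controls, and 2 of its genes changed. Of the intestine list (2 genes), 1 gene changed, and it summed to 20.0 to 51.2 CPM beside 40.1 to 66.0. The liver list overlapped the controls (1025 to 1288 and 931 to 1233 CPM). The part of these tissues in the 4 changes was not tested. In 1,2-dimethylnaphthalene, no gene of the 7 marker lists changed, and its yolk syncytial layer sum of 3589 to 5080 CPM overlapped that of the controls.

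Peroxisomes shorten very long and branched chains. amacr, the racemase that readies branched acids and bile acid intermediates, differed among the groups (F test, adjusted p = 0.045, and adjusted p = 0.096 among the chemicals alone). It had few reads, 0 to 114 per exposed pool, and the controls split by day with 1 and 0 reads on day 1 and 16, 20 and 36 on day 2. The F test missed the threshold in 44 of 93 fits without 1 pool. Exposed pools of day 1 and day 2 had means of 1.45 and 1.37 log2 CPM.

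**Figure D4:**
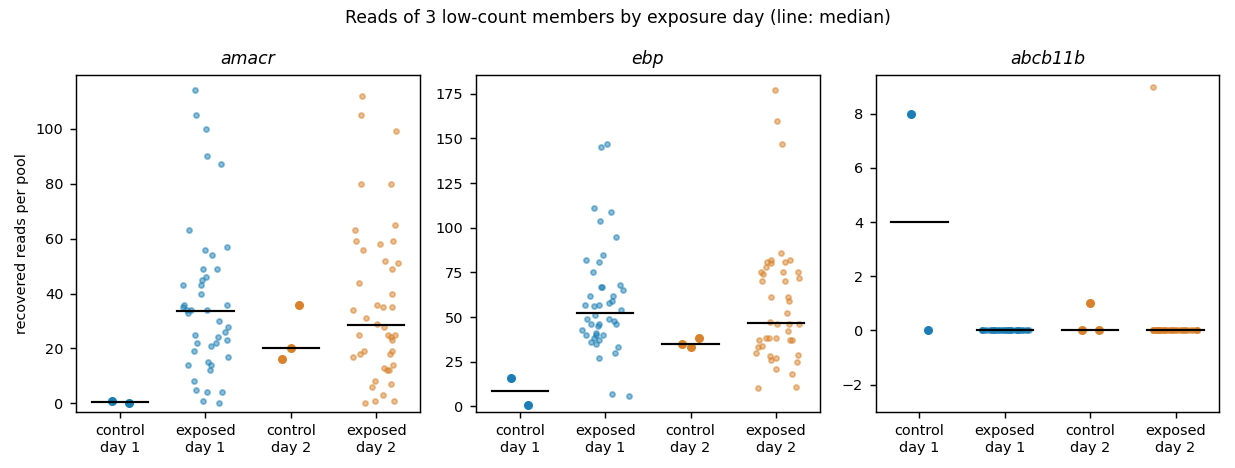
Recovered reads per pool of amacr, ebp and abcb11b in control and exposed pools of each day (points, colored by day, with the median as a line). The control pools of day 1 hold 1 and 0 reads of amacr and 16 and 1 of ebp, while 87 of 88 exposed pools hold 0 reads of abcb11b.

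Sterol synthesis was measured through 5 members, and none changed in any chemical. ebp, the sterol isomerase, was above the control mean in 22 of 22 chemicals, with 60 of 88 exposed pools above the highest control pool. Its control reads were 16 and 1 on day 1 and 35, 33 and 38 on day 2, against 6 to 177 in exposed pools. The mean of all chemicals was higher by 1.34 (95% interval 0.50 to 2.17) and did not pass (adjusted p = 0.063), while with genes of low level removed ebp did pass.

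hmgcs1, which makes the precursor of mevalonate, was below the control mean in 22 of 22 chemicals. Controls were at 4.07, 4.83, 3.77, 4.64 and 4.66 log2 CPM and exposed pools from 1.90 over a median of 3.81 to 5.26. The difference of all chemicals was −0.59 (SE 0.29, adjusted p = 0.37). Both ebp and hmgcs1 therefore lay on 1 side of shared controls without a change that passed, and in opposite directions.

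lss, which closes the sterol rings, had 0 to 105 reads in exposed pools beside 42, 19, 41, 8 and 33 in the controls, with a pooled difference of −0.91 (SE 0.71). hmgcra, the reductase that statins inhibit, and dhcr7, the last enzyme of the chain, had no reads in 59 and 52 of 88 exposed pools, and in 3 and 4 of the 5 controls. With reads this sparse, a difference in either may have been missed.

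Exposure day moved the calls of the sparse members more than any other choice. Against same-day controls, members changed in 32 tests and were called in 26, of which amacr gave 7, ebp 6 and abcb11b 11, all on day 1. There the 2 control pools carry the whole comparison. Over all genes, 0.945% of the tests of day 1 and 0.622% of those of day 2 changed that way, and 0.536% and 0.213% were called. Of 319 member tests on each day, 27 and 5 changed and 25 and 1 were called. Between the 2 and 3 control pools of the days no member passed, with the lowest adjusted p of 0.35 for amacr (3.30 higher on day 2) and fabp1a (−3.42 from day 1 to day 2). At this size and over 3068 genes that is no sign of equal levels, and amacr, fabp1a, apoa1a and apoc1 had unadjusted limma p values of 0.0015, 0.0026, 0.022 and 0.038.

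**Figure D5:**
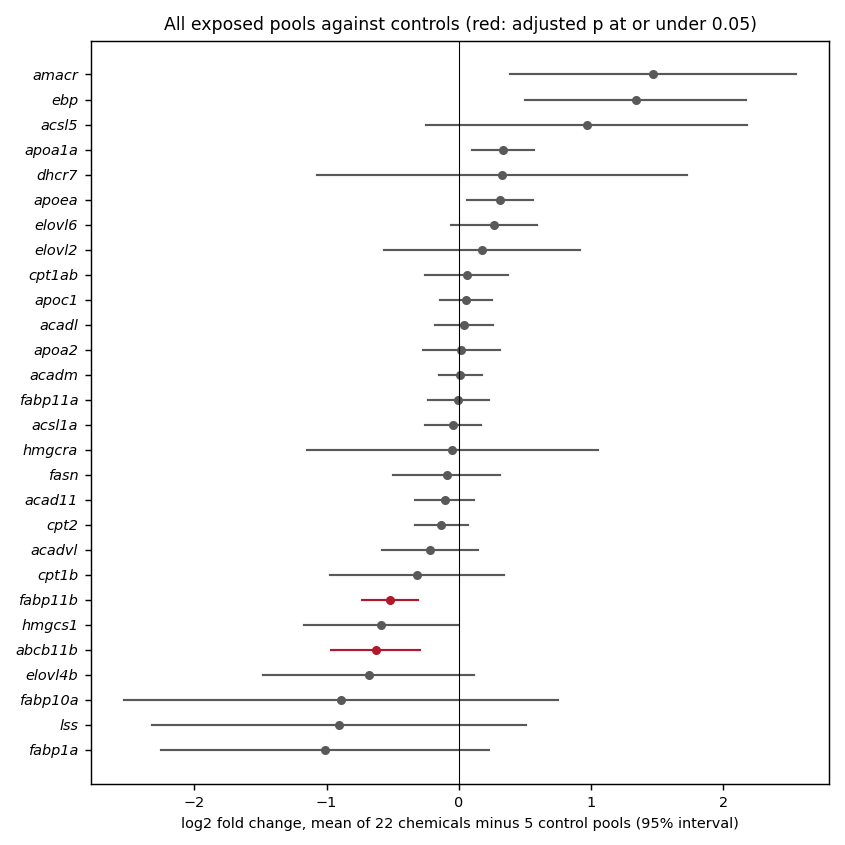
Mean of the 22 chemicals minus the mean of the 5 control pools for 28 members, as log2 fold change with its 95% interval. Red marks fabp11b (−0.52) and abcb11b (−0.63); the interval of abcb11b rests on 9 control reads.

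abcb11b, which pumps bile salts out of hepatocytes, had 8 and 0 reads in the day 1 controls and 0, 1 and 0 in those of day 2. Of the 88 exposed pools, 87 had none and 1 had 9, in 1,5-dimethylnaphthalene. The pooled comparison passed (−0.63, adjusted p = 0.024), on 9 control reads in all. Without control day 1 pool A it was −0.15 (adjusted p = 0.76), and it failed also without control day 2 pool B. In these corrected counts, transcripts of this pump were thus at the limit of detection in whole embryos of every group.

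No gene of fatty acid synthesis or activation changed. fasn, the fatty acid synthase, read 4.49, 6.04, 4.40, 4.53 and 4.77 log2 CPM in the controls, of which the day 1 pool at 6.04 was above every exposed pool, and did not change (pooled −0.09, SE 0.20). acsl1a, an acyl-CoA synthetase, kept to differences of −0.25 to 0.14. acsl5, of the same family, had 0 to 99 reads in exposed pools and controls of 18, 24, 51, 2 and 0, with a pooled difference of 0.97 (SE 0.61). Desaturases and srebf genes were not among the 29 symbols matched.

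Over the 29 members the pooled difference was positive for 13 and negative for 16, with a median of −0.05 beside −0.02 over all genes. Beyond them, 50 genes of lipid metabolism were measured out of 145 listed for sterol and fatty acid synthesis and uptake, oxidation, lipoprotein assembly, bile acids and PPAR receptors. Of these genes 0 rose in a chemical, 2 fell and 0 were called. The 2 genes were nr1h3, in 6 chemicals, and angptl4, in 1. Over all genes, 1.2% of the tests against a chemical changed and 0.324% were called. Those are shares of tests and not of genes, so the count of 2 genes cannot be compared with them. nr1h3, the liver X receptor that senses oxysterols and drives apolipoprotein and sterol transport genes, had control levels of 7.61, 7.35, 7.65, 7.30 and 7.64 log2 CPM. It was lower in the mean of all chemicals (−0.39, SE 0.09, adjusted p = 0.0065). In that comparison it was the 1 gene of the 50 that changed, where 1.76% of all genes were lower. It fell in 6 chemicals, of which 2,6-diisopropylnaphthalene differed most (−0.54, adjusted p = 0.024). None of these 6 passed against same-day controls, where the differences were −0.42 to −0.56 beside −0.45 to −0.54 here, and without control day 1 pool A the pooled difference just missed the threshold (adjusted p = 0.052). angptl4, a secreted inhibitor of lipoprotein lipase, fell in the 2,4,5-trimethyl derivative (−0.51, adjusted p = 0.033). That change was lost without any 1 of 7 of the 9 pools, among them each control pool of day 2. The difference was reduced to −0.13 against the controls of its own day.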

How the data were processed

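The deposited table gives log2 CPM. The authors counted TempO-Seq reads with the platform's software, summed the probes of a gene, removed the effect of exposure day with ComBat_seq and scaled by the upper quartile. edgeR (no version) and build GRCz11 are named in the submitters' processing notes. The values correspond to a prior count of 2. Control day 1 pool B, removed by the authors, was not analysed here. Deposited fold changes, p-values, adjusted p-values and scores of the authors' own comparisons were not used.

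Members were the 29 symbols that matched a fixed pattern, of which 1 is counted but not reported here, and members and lists were chosen with earlier results of these data known. A single limma fit (limma 3.58.1, R 4.3.3, default eBayes) held 93 pools in 23 groups with no covariate, with Benjamini-Hochberg adjustment over 3068 genes per comparison. Pools were formed by vial group per the labels, and p-values measure the spread between pools, which may be partly technical. The log2 values gave back whole reads (tolerance 0.02 reads) for 100% of values, and 1 read was 0.0696 to 0.148 CPM. These reads are counts after ComBat_seq. Genes were named where they changed, where an F test or the pooled comparison passed, or where they had the lowest F test p of their role group; acadm, acadvl, apoa2, apoc1, acsl5, cpt1ab, cpt1b, ebp, hmgcs1, hmgcra, dhcr7, elovl2, elovl4b, fabp1a and fabp10a were named after their values were seen. The fit was checked on simulated normal values with changes planted in genes of low spread, larger than the member changes found here. That check does not cover smaller changes or sparse genes. Alternatives were pseudocounts of 1 and 4, a filter at a mean of 1 log2 CPM, median centring, separate fits, same-day controls, eBayes with trend and robust settings, voom, a replicate block, day as a covariate and leaving out each pool. F tests of chemicals alone, of each day, and counts of pairs at any fold were added after seeing the data.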

Additional observations from a re-analysis of the deposited data

Results flagged for a closer look

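Over 25 gene and group values checked, 2 held a pool far from the others, where chance alone marks about 1 in 20. abcb11b in control day 1 pool A was at 0.20 log2 CPM while the other control pools were at or near the floor of the scale. fabp11b in 1,7-dimethylnaphthalene pool D was at 9.90 log2 CPM, below the other 3 pools of that chemical.

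5 differences between chemicals of the same day passed the direct test. For fabp11b, 1,2-dimethylnaphthalene was lower than 2,3-dimethylnaphthalene by a log2 difference of −0.86 and lower than 2,7-dimethylnaphthalene by −0.82. For elovl6, 1,7-dimethylnaphthalene was higher than 1,5-dimethylnaphthalene by 0.88. For fabp11a, 1,7-dimethylnaphthalene was lower than 1,3-dimethylnaphthalene by −0.64 and lower than 1,5-dimethylnaphthalene by −0.66.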

How the results depend on the processing

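Of 28 single gene comparisons, 0 reversed in any alternative and 25 missed the threshold in at least 1. fabp11b in 1,2-dimethylnaphthalene and fabp11b and nr1h3 in the pooled comparison passed in all fits that kept every pool, and with pools left out the pooled nr1h3 missed without control day 1 pool A (adjusted p = 0.052). Calls over the chemicals were 1, and 2 with the filter on low values (with ebp) or voom (with amacr). Changes at any fold were 12, and 2 with a separate fit of each chemical with its controls, where fewer samples set the spread. Of these 2, that of fabp11b in 1,2-dimethylnaphthalene was among the 12, and that of acadvl was not. With same-day controls, which give the same fit as day as a covariate, there were 26 calls and 32 changes. Members differing in the pooled comparison were 2 (fabp11b and abcb11b), 1 (fabp11b) with either pseudocount or with trend and robust settings, and 4 with day as a covariate. Changes between related chemicals were 5, 0 with separate fits of each pair and 8 with voom.

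The letters of the pools did not pair them: deviations of pools with the same letter had a mean r of 0.002, and 21 of 93 pools correlated best with their own letter. With the letter as a replicate block there were 1 call, 10 changes, 2 members in the pooled comparison, 3 in the F test (5 without the block) and 5 changes between pairs.

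Leaving out each of 93 pools gave 1 to 2 calls, 5 to 22 changes, 1 to 3 members in the pooled comparison, 3 to 7 in the F test, 0 to 1 calls between pairs and 2 to 15 changes between pairs. The 5 came without control day 1 pool A and an 8 without control day 2 pool C, and the 22 without 1,5-dimethylnaphthalene pool A, the 1 exposed pool with reads of abcb11b. The 15 came without 1,7-dimethylnaphthalene pool E, and 2 without its pool B or C. Few control pools and few reads limit the sparse members most, and small changes may have been missed.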
